A study of Rattus norvegicus with 6 samples.

Results

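Gene expression in rat lenses with galactose-induced opacity was compared between the AZD0156 group and the galactose group, which are 4 of the 6 arrays of the series. All lenses came from male, 6-week-old Sprague Dawley rats and were kept for 6 days in M199 medium with bovine serum albumin. In the galactose group (3 arrays) the medium held 30 mM galactose throughout, and DMSO was the vehicle. In the AZD0156 group (1 array) the lenses spent 3 days in 30 mM galactose, and 20 µM AZD0156 dissolved in DMSO was then added for another 3 days with galactose still present. The other arrays were 1 with 20 µM KU55933, given on the same schedule, and 1 Control cultured without galactose. Both compounds are inhibitors of the kinase Atm, and the question was which transcripts differ once the kinase is inhibited in a lens that is already opaque. The sources used here do not give the number of lenses behind each array, and nothing states that the 3 galactose arrays came from separate animals, so that p values measure only the spread between these arrays.

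Atm is a protein kinase of the DNA damage response. It is activated at double-strand breaks and phosphorylates p53, the checkpoint kinases and the histone variant H2ax, among others, which leads to repair, cell cycle arrest or cell death. The lens holds a single layer of epithelial cells over a mass of fibre cells, and only the epithelium divides and supplies new fibres. In galactose cataract, aldose reductase turns galactose into galactitol, which stays in the cells, and osmotic, oxidative and endoplasmic reticulum stress follow. These are textbook facts and not results of the arrays.

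The comparison used 5784 probe sets that are linked to a gene and reach a log2 signal of 5 on at least 1 of the 6 arrays, and of these 5587 carry 1 gene symbol and cover 5478 genes. The AZD0156 array lay low as a whole. Its median over the tested probe sets was 5.55, while the other 5 arrays lay between 5.69 and 5.81, and over all 36685 probe sets its median was instead the highest, at 3.11 against 2.96 to 3.04. Each array was therefore centred on its median over the tested probe sets, and signals below are centred log2 values on a scale with a common median of 5.73. A difference of 1 on this scale is a doubling of the signal. The part of the array's low level in the results was not tested beyond the scalings given with the processing. After centring, the median difference was 0.06 in the probe sets with a mean signal up to 5 and -0.04 in those between 7 and 8. Markers of immune cells, endothelium, retina, iris and ciliary body, and blood stayed under 5 on every array, with a highest deposited signal of 4.92. Of 5 smooth muscle markers measured, Tagln and Des reached 5, Des only in the Control (6.11 as deposited). The mean centred signal of the 5 markers was 4.21, 4.31 and 4.51 in the galactose group and 4.3 in the AZD0156 group, among the galactose arrays. As deposited, the AZD0156 mean was 4.12, below the galactose arrays at 4.17 to 4.59. Tagln itself was lower with AZD0156, as described below. Lens fibre and epithelial genes were measured at up to 13.43 (Crygd with AZD0156). In whole lenses, fewer cells of a type and less RNA per cell cannot be told apart.

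Some of the genes described next share short promoter elements, and 6 promoters are printed here with these elements in capitals. They are the 250 bases before the start site in RefSeq (GRCr8), 5′ to 3′ on the strand of the gene. Of the 24 genes with the lowest p, 18 have a promoter in this table. Mki67 and Kpna2, genes of dividing cells, and the tubulin gene Tuba1c are among these 18 and were picked by hand. The elements were not counted over the 18, so the promoters shown do not measure an enrichment. Capitals mark CCAAT (the CCAAT box) and TTTGAA (the cell cycle genes homology region), searched on both strands, so that ATTGG and TTCAAA count as well. CCAAT occurs in 34.0% of 33469 promoter windows of this length, TTTGAA in 16.2%, and both in 5.87%.
Mki67 promoter, chr1:199952594-199952843, minus strand: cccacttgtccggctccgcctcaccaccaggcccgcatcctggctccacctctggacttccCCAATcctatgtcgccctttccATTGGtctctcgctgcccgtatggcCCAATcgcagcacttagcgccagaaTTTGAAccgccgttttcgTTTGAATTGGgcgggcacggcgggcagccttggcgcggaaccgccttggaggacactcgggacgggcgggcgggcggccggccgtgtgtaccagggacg
Kpna2 promoter, chr10:92445842-92446091, minus strand: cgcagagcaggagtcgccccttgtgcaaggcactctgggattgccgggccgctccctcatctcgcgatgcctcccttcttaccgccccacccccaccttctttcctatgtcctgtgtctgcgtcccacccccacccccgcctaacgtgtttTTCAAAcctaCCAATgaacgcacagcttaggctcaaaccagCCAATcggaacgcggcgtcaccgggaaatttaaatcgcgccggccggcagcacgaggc
Tuba1c promoter, chr7:132070734-132070983, plus strand: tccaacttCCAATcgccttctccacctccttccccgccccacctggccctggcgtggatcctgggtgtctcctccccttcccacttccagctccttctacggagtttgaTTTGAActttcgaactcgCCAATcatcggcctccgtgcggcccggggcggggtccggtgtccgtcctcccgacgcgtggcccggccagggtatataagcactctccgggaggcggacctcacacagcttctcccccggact
Mki67 holds 4 matches to CCAAT and 2 to TTTGAA, one of which overlaps a CCAAT match by 1 base. Kpna2 and Tuba1c each hold 2 matches to CCAAT and 1 to TTTGAA. The metallothionein genes Mt1 and Mt2A are shown with TGCNCNC in capitals on both strands. This is a looser form of the core of the metal response element, which allows only A or G after TGC. Some matches are therefore not that core. TGCNCNC occurs in 43.4% of the windows, and at least 4 matches occur in 1.16%.
Mt1 promoter, chr19:10832976-10833225, minus strand: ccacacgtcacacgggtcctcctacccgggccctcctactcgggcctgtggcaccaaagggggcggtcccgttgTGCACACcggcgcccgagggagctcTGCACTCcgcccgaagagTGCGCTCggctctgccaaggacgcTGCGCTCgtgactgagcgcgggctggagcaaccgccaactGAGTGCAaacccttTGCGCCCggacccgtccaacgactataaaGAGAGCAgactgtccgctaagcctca
Mt2A promoter, chr19:10838709-10838958, minus strand: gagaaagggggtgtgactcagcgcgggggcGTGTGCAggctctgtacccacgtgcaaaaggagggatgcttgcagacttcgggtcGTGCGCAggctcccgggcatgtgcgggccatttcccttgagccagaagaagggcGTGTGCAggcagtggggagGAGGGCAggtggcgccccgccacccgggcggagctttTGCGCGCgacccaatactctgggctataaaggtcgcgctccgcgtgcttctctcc
Mt1 holds 7 matches to this looser pattern and Mt2A holds 5. Gpnmb, the gene with the largest positive difference, is shown with TCATGTG in capitals, the M-box bound by factors of the MITF and TFE family. It occurs in 3.07% of the windows.
Gpnmb promoter, chr4:79340878-79341127, plus strand: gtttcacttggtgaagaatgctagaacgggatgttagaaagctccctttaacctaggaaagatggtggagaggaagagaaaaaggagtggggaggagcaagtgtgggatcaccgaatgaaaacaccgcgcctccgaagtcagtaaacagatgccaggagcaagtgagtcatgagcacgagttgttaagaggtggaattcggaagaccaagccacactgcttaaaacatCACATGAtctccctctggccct
Gpnmb holds 1 match, on the opposite strand. A match is a run of letters and was not measured as a bound site.

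Some genes of dividing cells, cytokines, interferon-responsive genes and genes of the actin cytoskeleton lay lower with AZD0156, and some lysosomal genes, some p53 targets and the transporters Slc7a11 and Slc6a6 lay higher. None of these differences passed the test. In limma with Benjamini-Hochberg adjustment, 0 of 5784 probe sets were called in either direction, and the lowest adjusted p was 0.106, shared by Cntf, Gpnmb and Tuba1c. Without adjustment, 259 probe sets (4.48%) lay higher and 335 (5.79%) lay lower with a p under 0.05. AZD0156 lay above all 3 galactose arrays in 1787 probe sets (30.9%) and below all 3 in 1601 (27.7%), and these shares are the background for the counts of members that follow. Differences of at least 1 that also lay outside all 3 galactose arrays numbered 49 higher (0.847%) and 75 lower (1.3%). Of the 49, 12 passed the signal minimum only through the AZD0156 array, and of the 75, 14 passed it only through the galactose arrays, so a difference was built into their selection. Named genes that passed it in either of these ways are marked as such. Medians of gene lists are set beside the galactose range, which is the lowest and highest median deviation of a single galactose array from the mean of the 3. Each galactose array is part of that mean and AZD0156 is not, so the range is too narrow as a yardstick for AZD0156. A median outside it is not a test result. The median 95% margin of a difference was 0.59 on the log2 scale, before adjustment. The AZD0156 group has 1 array and no spread of its own, and the test assumes that it varies as the galactose arrays do.

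**Figure D1:**
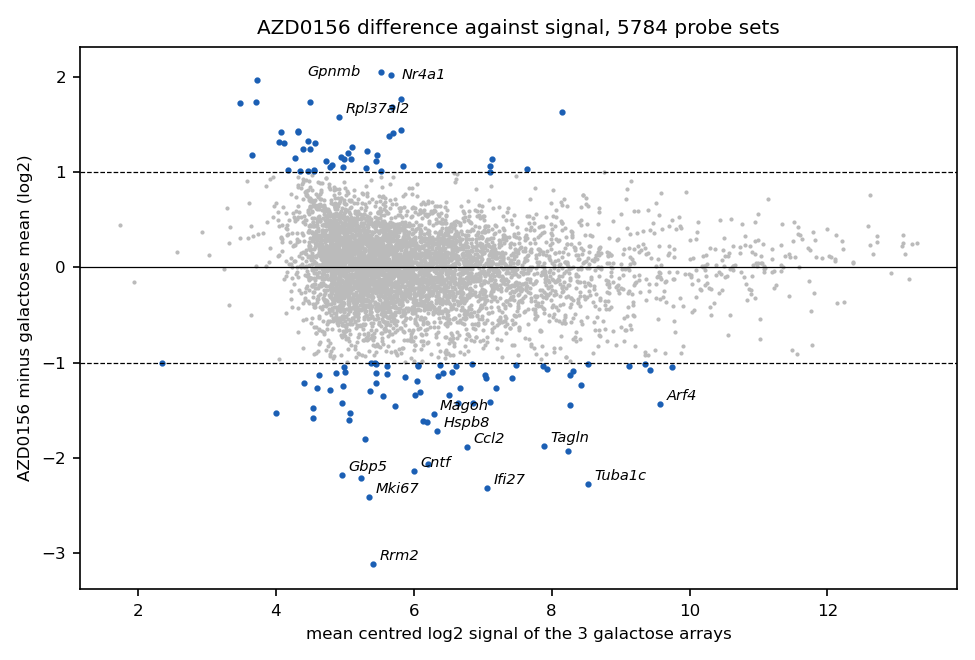
Each point is 1 of 5784 probe sets, with the mean centred log2 signal of the 3 galactose arrays on the x axis and the AZD0156 minus galactose difference (log2) on the y axis. Blue points differ by at least 1 (dashed lines), 49 higher and 75 lower, and labelled genes are among those described in the text.

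Rrm2 and Mki67, genes of dividing cells, showed the largest differences, but a difference was built into their selection, as given below. The next was Ifi27 at -2.31, which is described further on. Rrm2, the small subunit of ribonucleotide reductase, which supplies deoxynucleotides for replication, had signals of 4.77, 5.92 and 5.55 in the galactose group and 2.30 with AZD0156. Mki67, the proliferation marker Ki-67, had signals of 5.10, 5.12 and 5.84 in the galactose group and 2.95 with AZD0156. Both lay below every galactose array, and also below the Control (2.70 and 3.81). The differences were -3.12 for Rrm2 (95% interval -4.29 to -1.94, limma adjusted p = 0.223) and -2.41 for Mki67 (-3.29 to -1.52, adjusted p = 0.222), and both genes passed the signal minimum only through the galactose arrays. Kpna2, an importin that carries proteins into the nucleus and peaks in dividing cells, was at 6.04, 6.38 and 6.0 with galactose and at 4.53 with AZD0156. This is a difference of -1.61 (-2.16 to -1.06, adjusted p = 0.180), and the Control was at 5.96, next to the galactose arrays. Among 65 listed cell cycle genes 13 were tested, of which 11 were lower and 2 higher, with a median difference of -0.36 (galactose range -0.30 to 0.14) against 0.02 over all genes, and -0.23 without galactose replicate 2. Of the 13, 6 lay below all galactose arrays (background 27.7%) and 3 were lower with an unadjusted limma p under 0.05 (background 5.79%). Rrm2 and Mki67 are in both counts, and they are the 2 of the 13 that passed the signal minimum only through galactose. A difference was thus built into part of these counts. Pcna, the sliding clamp of replication, differed by -0.73 and Ccnd2, cyclin D2, by -0.55, while the 2 higher members were the growth arrest genes Cdkn1a (0.66) and Ccng1 (0.47).

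Tubulins and histones lay on the same side. Tuba1c, an alpha-tubulin, was one of the brighter genes, with 8.30, 8.77 and 8.53 in the galactose group, 6.26 with AZD0156 and 6.19 in the Control. AZD0156 was thus near the Control and far below each galactose array, with a difference of -2.28 (-2.92 to -1.63, limma adjusted p = 0.106). All 8 tested tubulin genes of 20 listed were lower, with a median of -0.26 (galactose range -0.16 to 0.17), and 4 lay below all galactose arrays (background 27.7%). After Tuba1c the sizes dropped to -0.63 for Tuba1b and -0.54 for Tubb2a, and Tubb5, the brightest tubulin, differed by only -0.11. Of 36 listed histone genes 24 were tested and 20 were lower, with a median of -0.56 (galactose range -0.29 to 0.24). Of the 24, 13 lay below all galactose arrays (background 27.7%) and 10 were lower with an unadjusted limma p under 0.05 (background 5.79%). Of the 24, 2 passed the signal minimum only through galactose. Hist2h3c2, an H3 gene, was at 9.17, 9.63 and 9.28 with galactose and at 8.35 with AZD0156, a difference of -1.01 (-1.66 to -0.36, adjusted p = 0.376). Hist1h3b, also an H3 gene and picked after its values were seen, differed by 0.55 in the other direction. Histone genes are near-identical copies, 11 more histone probe sets match several of them, and their single values are uncertain for that reason.

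Next to these stand the genes closest to Atm itself. Atm had deposited signals of 2.64 to 3.12 in the galactose group and 2.77 with AZD0156, all under the minimum of 5, so the transcript of the inhibited kinase was not tested. A kinase inhibitor acts on the protein, and this signal does not check the treatment. Of 90 listed DNA damage response genes 25 were tested, and they showed little shift as a group, with 12 higher, 13 lower and a median of -0.03 that became 0.01 without galactose replicate 2. The largest differences were those of Aptx, which repairs aborted DNA ligation ends, and H2ax, the histone variant phosphorylated at breaks. H2ax was at 6.18, 6.26 and 5.92 with galactose and at 5.13 with AZD0156, nearer to the Control at 4.76, with a difference of -0.99 (-1.52 to -0.46, limma adjusted p = 0.347). Aptx differed by -1.05 and passed the signal minimum only through the galactose arrays. Plk3, a polo-like kinase of the stress response, differed by -0.49 (-1.14 to 0.17), with 4.87 against 5.10 to 5.55, and also passed only through galactose. Kat5, the acetyltransferase also called Tip60 that acts on Atm, was at 4.95, 5.04 and 5.17 with galactose and at 5.64 with AZD0156, a difference of 0.58 (0.08 to 1.08, adjusted p = 0.440).

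Of 48 listed p53 targets 19 were tested, with a median of 0.14 (galactose range -0.10 to 0.10), which became -0.06 with the values as deposited and 0.25 without galactose replicate 3. AZD0156 lay above all galactose arrays in 9 (background 30.9%) and below all in 6 (background 27.7%). Mdm2, the ubiquitin ligase that degrades p53, was at 6.87, 8.10 and 7.49 in the galactose group and at 8.44 with AZD0156, against 5.77 in the Control. Cdkn1a, the cell cycle inhibitor p21, was at 6.43, 7.45 and 6.97 with galactose and at 7.61 with AZD0156, against 5.37 in the Control. Both were therefore further from the Control than any galactose array, but the galactose arrays themselves spanned over 1 log2 unit and the differences of 0.96 (-0.07 to 1.98) and 0.66 (-0.23 to 1.54) had intervals that include 0. Tp53inp1, a p53 cofactor that also acts in autophagy, differed by 0.71 and Steap3, an iron reductase, by 1.11 (0.53 to 1.69, limma adjusted p = 0.347). Gadd45a, a growth arrest gene, went the other way, with 9.04, 8.90 and 9.08 in the galactose group and 8.38 with AZD0156, close to the Control at 8.44.

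**Figure D2:**
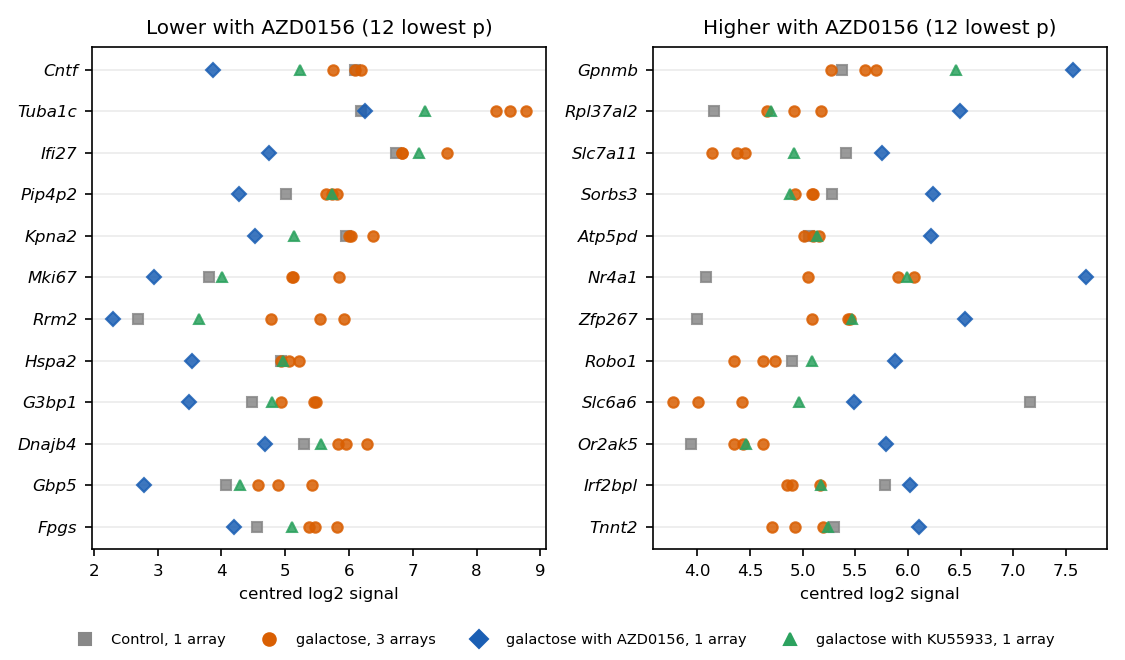
Centred log2 signal (x axis) on each of the 6 arrays for the 12 genes with the lowest p in each direction, lower on the left and higher on the right. In each gene the AZD0156 array (diamond) lies outside the 3 galactose arrays (circles), as the choice by p tends to give, and the KU55933 array (triangle) lies between AZD0156 and the galactose arrays or among them in most genes.

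Cntf, ciliary neurotrophic factor of the interleukin 6 family, was at 5.74, 6.19 and 6.09 with galactose, at 6.09 in the Control and at 3.87 with AZD0156. The galactose arrays and the Control were alike, KU55933 lay lower at 5.24 and AZD0156 lowest, with a difference of -2.13 (-2.70 to -1.57, limma adjusted p = 0.106). Ccl2, a chemokine that draws monocytes, was at 6.65, 7.33 and 6.33 with galactose, at 4.89 with AZD0156 and at 4.78 in the Control, a difference of -1.88 (-2.74 to -1.03, adjusted p = 0.272). Here AZD0156 was near the Control. Of 65 listed cytokine and inflammatory genes 20 were tested, with a median of -0.49 (galactose range -0.16 to 0.16). They include 15 lower genes, 13 of them below all galactose arrays (background 27.7%), and 5 higher genes. Of the 20, 8 were lower with an unadjusted limma p under 0.05 (background 5.79%) and 2 were higher (background 4.48%). Of the 20, 2 passed the signal minimum only through galactose. Among ligands and receptors of the Cntf family, the ligand Lif, which passed only through galactose, differed by -0.99 (-2.19 to 0.21) and the specific receptor Cntfr by -0.08, while the shared receptors Lifr and Il6st differed by 0.92 and 0.65, above all galactose arrays. Lifr stayed under 5 on the 4 arrays compared and passed the signal minimum only through arrays outside this comparison. Lifr, Il6st, Lif and Cntfr were picked after their values were seen. Tnfrsf12a, the receptor of the cytokine TWEAK, was at 7.39, 7.28 and 6.68 with galactose, at 5.70 with AZD0156 and at 5.60 in the Control, a difference of -1.41 (adjusted p = 0.347). Nfkbia, the inhibitor of NF-kB and itself one of its targets, differed by -1.04. The value of Lcn2, a secreted iron-binding protein, rests on galactose replicate 2, which was at 9.03 while the other galactose arrays were at 4.96 and 4.62 and AZD0156 at 4.14.

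Interferon-responsive genes had few tested members, 11 of 61 listed, of which 10 were lower with a median of -0.35 (galactose range -0.08 to -0.04), and -0.22 without galactose replicate 2. Ifi27, an interferon-induced mitochondrial protein, was at 7.53, 6.83 and 6.83 with galactose, at 6.74 in the Control and at 4.75 with AZD0156, a difference of -2.31 (-3.08 to -1.54, limma adjusted p = 0.180). Gbp5, an interferon-induced GTPase, was at 4.57, 5.42 and 4.88 with galactose and at 2.78 with AZD0156, and it passed the signal minimum only through galactose. B2m, the light chain of class I antigen-presenting molecules, was at 9.46, 9.39 and 9.64 with galactose and at 8.63 with AZD0156, against 8.25 in the Control. In these 3 genes AZD0156 lay below each galactose array, with differences of -2.31, -2.18 and -0.87. The defining immune marker Ptprc stayed between 1.63 and 2.01 on all arrays as deposited, and no immune marker reached 5.

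The actin cytoskeleton list was large enough to show its spread. Of 72 listed genes 56 were tested, with 38 lower, 18 higher and a median of -0.24 (galactose range -0.07 to 0.02). Of the 56, 31 lay below all galactose arrays (background 27.7%) against 5 above all (background 30.9%), and 3 passed the signal minimum only through galactose. Tagln, transgelin, an actin-binding protein of contractile and mesenchymal cells, was at 7.27, 7.96 and 8.44 with galactose, at 6.01 with AZD0156 and at 5.14 in the Control. The difference was -1.88 (-2.85 to -0.90, limma adjusted p = 0.347), and Tagln is also one of the 2 smooth muscle markers that reach 5. The defining smooth muscle marker Myh11 stayed between 2.68 and 3.20 as deposited. Actn1, an actin crosslinker of adhesions, was at 6.31, 6.64 and 6.73 with galactose and at 5.79 with AZD0156. Csrp1, a LIM protein of the actin cytoskeleton, was at 6.85, 7.06 and 7.09 with galactose and at 6.24 with AZD0156. Both lay between the galactose arrays and the Control (5.19 and 5.26), with differences of -0.77 and -0.76. Flnc, filamin C, differed by -1.42 and Ankrd1, a target of mechanical signalling, by -1.47, and in both galactose replicate 1 (7.85 and 5.32) was the highest array. Ankrd1 passed the signal minimum only through galactose. The 2 probe sets shared by Actg1, cytoplasmic gamma-actin, and Actg1l1 were at 11.13, 11.88 and 11.68 with galactose and at 10.66 with AZD0156 in one, and at 11.36, 12.03 and 11.92 against 10.96 in the other. Acta1, skeletal actin, differed by -0.50 (-1.83 to 0.83) and had 6.42 against 6.22 to 7.92, inside the galactose range. Vcl, vinculin, differed by 0.09 (-0.93 to 1.12), and its sign changed with the values as deposited. Fn1, fibronectin, was under 5 on all arrays, at 2.85 to 3.46 with galactose and 3.28 with AZD0156 as deposited, and was not tested.

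Matrix genes did not shift in one direction. Of 28 tested, 15 were lower and 13 higher. Plod2, a collagen lysine hydroxylase, differed by -1.09 and Serpinh1, the collagen chaperone, by -0.69, while Zeb1, a transcription factor of epithelial-mesenchymal transition that passed the signal minimum only through AZD0156, was at 4.44, 4.5 and 4.24 with galactose and at 5.32 with AZD0156, a difference of 0.92 (0.25 to 1.60, limma adjusted p = 0.391). Cd47, a receptor of thrombospondin, was at 5.70, 5.85 and 5.82 with galactose and at 6.41 with AZD0156, a difference of 0.62 (adjusted p = 0.406).

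**Figure D3:**
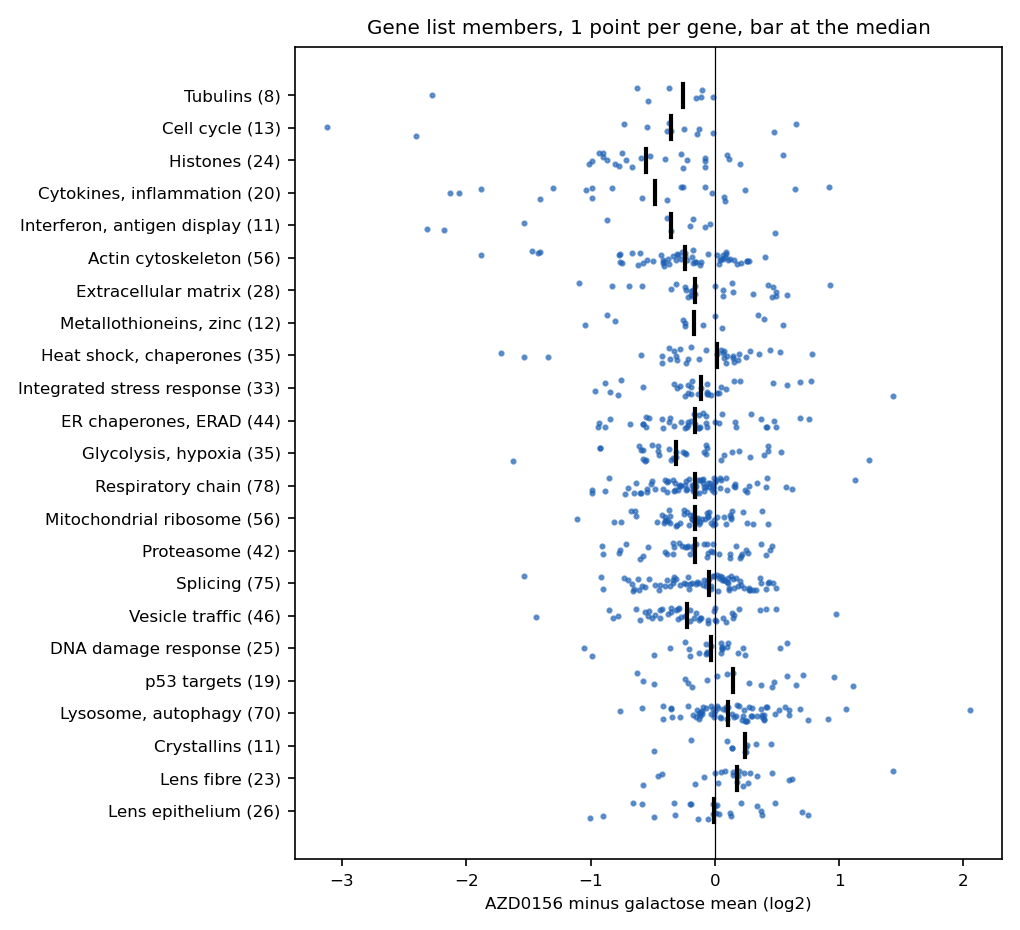
Each point is 1 tested gene of a list, with its AZD0156 minus galactose difference (log2) on the x axis, the number tested in brackets and a bar at the median. Bars lie furthest to the left for histones (-0.56), cytokines (-0.49) and the cell cycle (-0.36), and furthest to the right for crystallins (0.24).

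Metal-binding and antioxidant genes were mixed. Mt1, a metallothionein that binds zinc and copper, was at 9.88, 10.11 and 9.25 with galactose, at 8.71 with AZD0156, at 10.02 with KU55933 and at 7.31 in the Control. Mt2A, the other metallothionein shown above, was at 11.43, 11.79 and 11.26 with galactose, at 10.63 with AZD0156, at 11.82 with KU55933 and at 10.16 in the Control. Both lay below each galactose array with AZD0156, by differences of -1.04 (-1.87 to -0.21, limma adjusted p = 0.406) and -0.86 (-1.46 to -0.26, adjusted p = 0.376). A second, dimmer probe set of each gene differed by -1.58 for Mt1 and -1.44 for Mt2A. The zinc transporter Slc30a7, which loads zinc into the Golgi, differed by -0.80, the importer Slc39a6 by 0.55 and the metal sensor Mtf1 by 0.39. Of 53 tested genes of the NRF2 response, 31 were lower and 22 higher, with a median of -0.15 (galactose range -0.07 to 0.07) that became -0.25 without galactose replicate 1 and -0.06 without replicate 2. Nqo1, a quinone reductase, was at 5.15, 5.69 and 5.52 with galactose and at 4.34 with AZD0156, a difference of -1.11 (adjusted p = 0.353). Slc7a11, the cystine importer that feeds glutathione synthesis, went the other way, at 4.14, 4.38 and 4.46 with galactose, 5.76 with AZD0156 and 5.41 in the Control. The difference was 1.43 (0.84 to 2.03, adjusted p = 0.261), and AZD0156 lay on the side of the Control.

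Of 35 tested chaperone genes 18 were higher and 17 lower, and 16 lay below all galactose arrays (background 27.7%) against 9 above all (background 30.9%). The median was 0.02, inside the galactose range of -0.06 to 0.08, and it became -0.14 without galactose replicate 1 and -0.18 with the values as deposited. Hspb8, a small heat shock protein, was at 6.75, 6.63 and 5.63 with galactose and at 4.62 with AZD0156 (-1.72, limma adjusted p = 0.348). Hspa2, an Hsp70 family member, was at 5.22, 5.06 and 4.94 with galactose and at 3.54 with AZD0156 (-1.53, adjusted p = 0.225). Dnajb4, an Hsp40 family member, was at 5.83, 6.28 and 5.96 with galactose and at 4.68 with AZD0156 (-1.34, adjusted p = 0.271). In all 3 AZD0156 lay below every galactose array. Bag1, a cochaperone, differed by 0.78. Genes of the integrated stress response, which is driven by eIF2 alpha phosphorylation, included 22 lower and 11 higher among 33 tested. Atf5, one of its transcription factors, differed by -0.84 and Bcat1, an aminotransferase of branched-chain amino acids, by -0.88, while Ddit3, the death-linked factor CHOP, was at 9.92, 9.08 and 9.76 with galactose and at 10.36 with AZD0156, a difference of 0.77 (-0.05 to 1.59). Among endoplasmic reticulum chaperones and degradation genes, 31 of 44 were lower, such as P4hb (-0.94), a disulfide isomerase, and Selenos (-0.93), which passed only through galactose, and the stress sensor Ern1 differed by 0.76.

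In energy metabolism the galactose arrays themselves differed. Of 78 tested respiratory chain genes 59 were lower, with 32 below all galactose arrays (background 27.7%), and 3 of the 78 passed the signal minimum only through galactose. Their median of -0.16 lay inside the galactose range of -0.19 to 0.32 and became -0.05 without galactose replicate 1. Of 56 mitochondrial ribosome genes 43 were lower, with a median of -0.16 just outside the galactose range of -0.12 to 0.19, and again -0.05 without replicate 1. Cox7b, a subunit of cytochrome oxidase, differed by -0.99 and Ndufa8, a subunit of complex I, by -0.88, while Atp5pd, subunit d of ATP synthase, was at 5.15, 5.02 and 5.10 with galactose and at 6.22 with AZD0156, a difference of 1.13 (0.65 to 1.62, limma adjusted p = 0.272). In glycolysis and hypoxia genes 25 of 35 were lower, with a median of -0.31 close to the lower end of the galactose range (-0.25 to 0.28), and -0.17 without galactose replicate 3. Slc2a1, the glucose transporter Glut1, was at 8.96, 9.56 and 9.68 with galactose and at 8.48 with AZD0156, and Ldha, lactate dehydrogenase A, at 7.05, 7.86 and 7.62 and at 6.59. Fatty acid oxidation and PPAR target genes had 17 of 20 lower, also with a median of -0.31 (galactose range -0.10 to 0.08), and -0.47 without replicate 1. Angptl4, an inhibitor of lipoprotein lipase induced by fasting and hypoxia, was at 5.44, 6.25 and 6.88 with galactose, at 4.56 with AZD0156 and at 4.46 in the Control, a difference of -1.63 (-2.74 to -0.51, adjusted p = 0.376), and it passed the signal minimum only through galactose. Slc25a20, the carnitine carrier of mitochondria, differed by -0.87.

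Lysosomal genes lay higher in part. Gpnmb, a glycoprotein of lysosomes and melanosomes, was at 5.69, 5.59 and 5.27 with galactose, at 5.37 in the Control, at 6.45 with KU55933 and at 7.57 with AZD0156. The galactose arrays and the Control were alike and both inhibitor arrays lay above them, AZD0156 by 2.05 (1.48 to 2.62, limma adjusted p = 0.106). Ctsa, the protective protein cathepsin A, was at 6.67, 7.37 and 7.26 with galactose and at 8.16 with AZD0156, a difference of 1.06 (0.30 to 1.82, adjusted p = 0.382). Ctsb, the protease cathepsin B, was at 8.58, 9.50 and 9.36 with galactose and at 10.05 with AZD0156, a difference of 0.91 (0.02 to 1.80, adjusted p = 0.480). Of 105 listed lysosome and autophagy genes 70 were tested, 43 were higher and 27 lower, and 31 lay above all galactose arrays (background 30.9%) against 9 below all (background 27.7%). The median was 0.10, next to the upper end of the galactose range (-0.13 to 0.09), and it became 0.06 without galactose replicate 1 and -0.10 with the values as deposited. An unadjusted limma p under 0.05 was found for 5 higher members of the 70 (background 4.48%) and 1 lower one (background 5.79%). The other higher members were Gabarapl1, which coats autophagosomes (0.75), and Mcoln1, the lysosomal calcium channel (0.59). Mcoln1 was at 5.78, 5.94 and 5.69 with galactose, at 6.40 with AZD0156 and at 6.31 with KU55933, and it was picked after its values were seen. The lower member was Gla, alpha-galactosidase A, at 5.05, 5.38 and 5.36 with galactose and 4.5 with AZD0156, and it passed the signal minimum only through galactose. Grn, the lysosomal protein progranulin, differed by 0.68 with an interval of -0.26 to 1.63.

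**Figure D4:**
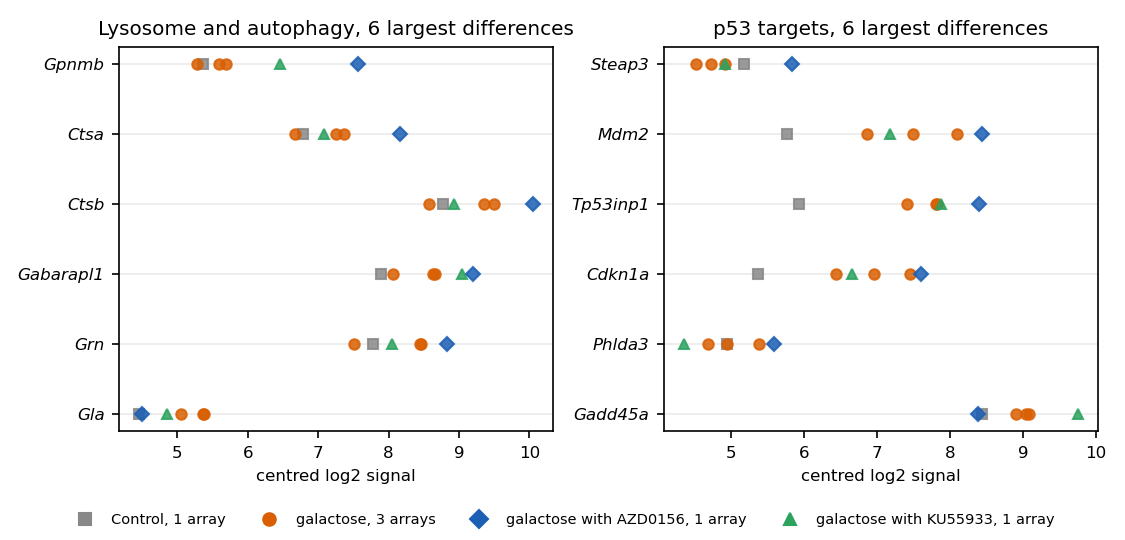
Centred log2 signal (x axis) on each array for the 6 members with the largest differences in the lysosome list (left) and among p53 targets (right). AZD0156 lies above the 3 galactose arrays in all but Gla on the left and all but Gadd45a on the right. Among the p53 targets it lies furthest from the Control in Mdm2, Cdkn1a, Tp53inp1 and Phlda3.

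The genes that define the lens itself differed little. Crystallins, the structural proteins that make the lens transparent, were among the brightest genes, but the list also holds the dim Cryz. Cryz was at 4.73, 5.48 and 5.24 with galactose and at 4.66 with AZD0156 (-0.49), and it passed the signal minimum only through galactose. Of 11 tested, Cryz among them, 9 were higher, 8 of them above all galactose arrays (background 30.9%). The median was 0.24 (galactose range -0.10 to 0.10), and it became 0.04 with the values as deposited and 0.00 with quantile normalization. Crygd, a gamma-crystallin, was at 13.21, 13.13 and 12.95 with galactose and at 13.43 with AZD0156, a difference of 0.34 (-0.06 to 0.73). Cryab, an alpha-crystallin that also acts as a chaperone, differed by 0.25 (-0.13 to 0.63). No crystallin had an unadjusted p under 0.05. Of 23 lens fibre genes 18 were higher, with a median of 0.18 (galactose range -0.15 to 0.13) that became 0.05 without galactose replicate 1, 0.11 without replicate 2 and -0.02 with the values as deposited. Prox1, a transcription factor of fibre differentiation, was at 6.98, 7.24 and 7.24 with galactose, at 7.78 with AZD0156 and at 7.92 in the Control, a difference of 0.62 (0.03 to 1.22, limma adjusted p = 0.471). Lens epithelium genes were split evenly, 13 higher and 13 lower. Hes1, a Notch target that keeps progenitors undifferentiated, was at 5.52, 5.48 and 5.30 with galactose and at 4.43 with AZD0156 (-1.0, adjusted p = 0.347). Pdpn, the membrane protein podoplanin, was at 9.46, 9.63 and 9.83 with galactose and at 8.74 with AZD0156 (-0.90, adjusted p = 0.376). Aqp1, the water channel of the lens epithelium, was at 4.56, 4.83 and 4.71 with galactose, at 5.40 with AZD0156 and at 7.09 in the Control (0.70, adjusted p = 0.392).

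Genes of galactose use and osmotic stress had no common direction, with 10 higher and 8 lower of 18 tested. Slc6a6, the taurine transporter, which cells use to hold organic osmolytes, was at 3.77, 4.01 and 4.42 with galactose, at 5.48 with AZD0156, at 4.97 with KU55933 and at 7.16 in the Control. Both inhibitor arrays lay between the galactose arrays and the Control, AZD0156 by 1.42 above the galactose mean (0.73 to 2.11, limma adjusted p = 0.347). Nfat5, a transcription factor activated by high osmolarity, differed by 0.44 (-0.43 to 1.31) and Sord, sorbitol dehydrogenase, by 0.37 (-0.38 to 1.12). Pgm1, phosphoglucomutase, differed by -0.78.

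Immediate early genes, which respond quickly to growth factors and stress, lay on both sides. Nr4a1, an orphan nuclear receptor, was at 5.91, 6.06 and 5.05 with galactose, at 4.08 in the Control and at 7.69 with AZD0156, a difference of 2.02 (1.13 to 2.92, limma adjusted p = 0.272). Egr1, a zinc finger transcription factor, was at 7.23, 7.24 and 6.62 with galactose and at 5.90 with AZD0156, a difference of -1.13 (-1.86 to -0.40, adjusted p = 0.376). Ier2 differed by -1.10. Nr4a1 thus lay above all galactose arrays and Egr1 and Ier2 below them, and of 22 tested members 15 were lower. In growth factor signalling, Fbxo32, the ubiquitin ligase atrogin-1 and a FoxO target, differed by 1.27 (0.29 to 2.24) and Egfr, the epidermal growth factor receptor, by 1.24 (0.34 to 2.14), while Cited2, a transcriptional coregulator, differed by -1.11.

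Genes of RNA, protein and vesicle handling held some large single differences. G3bp1, a core protein of stress granules that passed the signal minimum only through galactose, was at 4.94, 5.45 and 5.49 with galactose and at 3.49 with AZD0156, a difference of -1.80 (-2.51 to -1.09, limma adjusted p = 0.225). Magoh, a subunit of the exon junction complex, was at 6.86, 6.18 and 5.83 with galactose, at 4.75 with AZD0156 and at 6.57 with KU55933. Arf4, a small GTPase of Golgi traffic, was at 9.44, 9.93 and 9.36 with galactose and at 8.14 with AZD0156, a difference of -1.44 (-2.15 to -0.73, adjusted p = 0.347). Each of the 3 lay below every galactose array with AZD0156. In vesicle traffic 34 of 46 tested genes were lower with a median of -0.22 (galactose range -0.07 to 0.05), and Creb3l2, a transcription factor of the secretory pathway, was at 7.60 against 6.40 to 6.98. Proteasome genes had 29 of 42 lower with a median of -0.16 (galactose range -0.05 to 0.03) that became -0.10 without galactose replicate 1, such as the catalytic subunit Psmb6, at 9.84, 9.83 and 9.95 with galactose and 8.97 with AZD0156. Translation factors were mixed, with Eif4a1, the RNA helicase of the cap-binding complex, at -1.01 and Eef1g, an elongation factor subunit, at 0.72. Rpl37al2, annotated as a copy of a ribosomal protein gene, was at 4.66, 5.17 and 4.92 with galactose and at 6.49 with AZD0156 (1.57, adjusted p = 0.225), and as one of several near-identical copies its value is uncertain.

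The remaining genes with the lowest p belong to none of these groups. Pip4p2, a phosphatase of phosphoinositides in late endosomes, was at 5.74, 5.64 and 5.82 with galactose, at 5.73 with KU55933 and at 4.28 with AZD0156, a difference of -1.45 (-1.94 to -0.97, limma adjusted p = 0.180). Fpgs, which traps folates in the cell, differed by -1.35. On the higher side, Sorbs3, the adhesion protein vinexin, was at 4.93, 5.10 and 5.09 with galactose and at 6.24 with AZD0156, a difference of 1.2 (0.70 to 1.69, adjusted p = 0.261). Robo1, a guidance receptor, differed by 1.31, the zinc finger gene Zfp267 by 1.22, the olfactory receptor gene Or2ak5, which passed only through AZD0156, by 1.32, Irf2bpl by 1.05 and Tnnt2, cardiac troponin T, by 1.16. Serpina3n, a secreted protease inhibitor picked after its values were seen, was at 5.28, 5.43 and 6.33 with galactose and at 7.36 with AZD0156, a difference of 1.68. It is among 9 probe sets whose adjusted p was under 0.05 whichever single galactose array was left out. The others are Ifi27, Tuba1c, Cntf, Ccl2, Hspb8, Kpna2, Nr4a1 and Gpnmb. With all 3 galactose arrays none of the 9 passed. The fits without an array share the 1 AZD0156 array and overlap in their galactose arrays. Their prior degrees of freedom were 11.5 or more, against 5.44 with all arrays, and calls rose with less data. Passing in each of them is therefore not independent support.

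AZD0156 and KU55933 were used at the same dose and for the same time, and their direct contrast tests whether they differ. In limma 0 of 5784 probe sets were called at an adjusted p under 0.05, with a lowest adjusted p of 0.586, and without adjustment 172 probe sets (2.97%) lay higher with AZD0156 and 263 (4.55%) lay lower with a p under 0.05. A difference of at least 1 between the compounds was found in 84 probe sets (1.45%) that were higher with AZD0156 and in 107 (1.85%) that were lower. Each compound has 1 array, and the median 95% margin of their difference was 0.72 on the log2 scale, so that the absence of a call does not mean that the compounds act alike. Both comparisons with galactose share the 3 galactose arrays, so their values are only set side by side. In the 49 probe sets higher by at least 1 with AZD0156 the median difference was 1.2 with AZD0156 and 0.06 with KU55933, and in the 75 lower ones it was -1.25 and -0.21. As these probe sets were chosen on the AZD0156 array, larger values there follow from the choice. Ifi27 was at 7.10 with KU55933, among the galactose arrays, and at 4.75 with AZD0156, which gives a difference between the compounds of -2.35 (-3.30 to -1.41, adjusted p = 0.586). Nr4a1 was at 5.99 and 7.69, a difference of 1.71 (0.61 to 2.80, adjusted p = 0.586). For Tagln, at 6.48 and 6.01, the difference was -0.46 (-1.66 to 0.73), and for Slc6a6, at 4.97 and 5.48, it was 0.52 (-0.33 to 1.37). Atf5 was at 8.48 with KU55933 and 6.91 with AZD0156, on opposite sides of the galactose arrays (7.58 to 7.94), a difference of -1.58 (-2.34 to -0.82, adjusted p = 0.586), and Gadd45a was at 9.75 and 8.38, a difference of -1.37 (-2.08 to -0.66, adjusted p = 0.586).

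**Figure D5:**
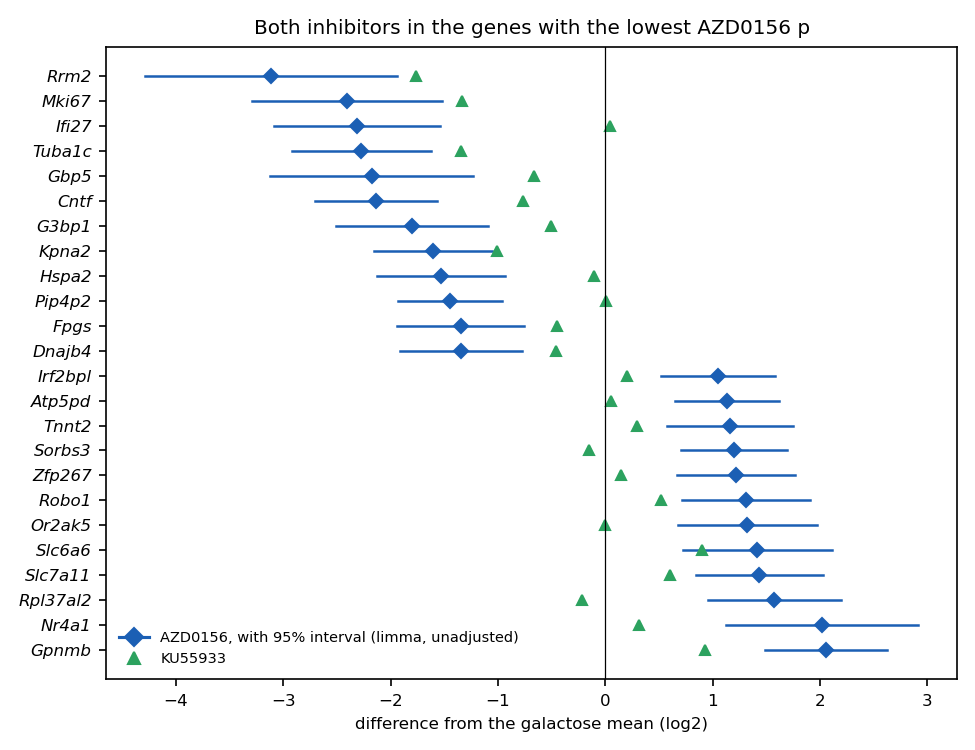
Difference from the galactose mean (log2, x axis) for the 24 genes with the lowest AZD0156 p, as diamonds with unadjusted limma 95% intervals for AZD0156 and as triangles for KU55933. AZD0156 lies further from 0 than KU55933 in each gene, which the choice of genes on the AZD0156 array favours.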

How the data were processed

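RNA of cultured rat lenses was hybridised to GeneChip Rat Gene 2.0 ST arrays, 1 per sample, and the number of arrays limits the precision. The authors deposited log2 signals, made from all 6 arrays by the Robust Multi-array Average method, which corrects the background, quantile-normalizes and summarises each probe set. The sources used here name neither the package nor the annotation. Of 36685 probe sets, 19086 were linked to a gene in the platform annotation, 18511 with 1 symbol and 575 with several, and 18394 of the former matched RefSeq by Entrez ID. As in the study's methods, a probe set had to reach 5 on at least 1 array, and each array was then centred on its median.

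The test was limma 3.58.1 (R 4.3.3), in 1 fit of all 6 arrays with 4 group means, 2 residual and 5.44 prior degrees of freedom and a mean-signal trend, with Benjamini-Hochberg adjustment over 5784 probe sets at a threshold of 0.05. Intervals are unadjusted. The methods name no test, and a normal score of each difference over all probe sets was rebuilt as an alternative, beside other scalings, filters, moderations and leaving out each galactose array. The pipeline was tested on simulated data. Genes named are the 12 of lowest p in each direction (1 symbol, the probe set of highest mean), up to 6 members of each list with the largest differences, and the genes of the study's network. Other genes named were picked after their values were seen. The gene lists and the members were chosen with earlier results of these data known. Acta2, Thbs1 and Tnfsf12 were not analysed here. Promoters are from RefSeq (GRCr8). Gene lists were described by counts and medians without a test. Figures and lists used Python 3.11.15 with pandas 2.3.3 and matplotlib 3.10.9.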

Additional observations from a re-analysis of the deposited data

How the results depend on the processing

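No paired analysis was possible because only the galactose group has more than 1 array and the other groups carry no replicate numbers. For AZD0156 against galactose, 0 probe sets were called at an adjusted p under 0.05 under each other scaling, filter and moderation, and with only the galactose and AZD0156 arrays in the fit. The normal score gave 105 higher and 180 lower at a P under 0.05 that was not adjusted, and for AZD0156 against KU55933 134 and 182. These are not comparable with the adjusted calls. The score divides by the spread of all differences, so that a small share passes whatever the compound did. It uses no replicate spread. Leaving out 1 galactose array gave 3 to 209 higher and 6 to 331 lower calls (replicate 3 and replicate 1 left out, with 22 and 29 without replicate 2), and against KU55933 1 to 147 higher and 0 to 216 lower. The prior degrees of freedom were then 11.5 or more, against 5.44 with all arrays. Counts at an unadjusted p under 0.05 were then 204 to 617 higher and 265 to 723 lower (highest without replicate 1).

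Scaling moved the split between higher and lower. Without centring, the median difference was -0.18, and 77 higher and 720 lower probe sets had an unadjusted p under 0.05, against 259 and 335 with centring. Centring on all gene-linked probe sets gave 68 and 835, and testing all of them without a filter, with this same centring, gave 650 and 1351. Differences of at least 1 numbered 24 higher and 179 lower without centring, 23 and 198 with centring on all gene-linked probe sets, and 89 and 293 without a filter. A mean signal of at least 5 left 29 higher. Of 30 described lists, 20 kept the sign of their median under all settings, and of the 10 others 7 were positive with centring. Vcl changed sign, to -0.13 with centring on all gene-linked probe sets and without a filter, -0.11 as deposited, and -0.15 and -0.02 without replicate 1 and 2. Without replicate 3 it kept its sign and came to 0.45, against 0.09 with all arrays. Acta1 came to -0.85 without replicate 1 and 0.0011 without replicate 3. The cause was not tested.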

Other observations

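A few genes outside the groups above, picked after their values were seen, had large differences with AZD0156 and a wide spread between the galactose arrays. Cp, the iron oxidase ceruloplasmin, was at 4.79, 5.92 and 6.75 with galactose, at 6.01 in the Control and at 7.59 with AZD0156, a difference of 1.77 (limma adjusted p = 0.429). Tmem140, a transmembrane protein, was at 7.52, 8.83 and 8.1 with galactose, at 3.75 in the Control and at 9.77 with AZD0156, a difference of 1.62 (adjusted p = 0.376). Emp1, an epithelial membrane protein, was at 6.23, 6.61 and 4.6 with galactose and at 7.25 with AZD0156, a difference of 1.44 (adjusted p = 0.511). In each of these genes AZD0156 lay above every galactose array. Tspan12, a tetraspanin, was at 5.39, 6.2 and 6.05 with galactose, at 6.22 in the Control and at 4.73 with AZD0156, a difference of -1.15 (adjusted p = 0.376), and of 29 tested genes of tetraspanins and exosomes 22 were lower, with a median of -0.23 (the single galactose arrays had medians of -0.14 to 0.10 around their mean).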
